A study of Mus musculus with 8 samples.

Results

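Megakaryocytes are the marrow and fetal liver cells that shed platelets, and 9 genes that mark them were followed through liver maturation. They were taken by symbol: Pf4, Ppbp, Itga2b, Gp9, Gp5, Gp6, Gp1ba, Gp1bb and Treml1. All 9 were present in every sample, among 22059 genes listed. Poly(A) RNA of the whole liver was sequenced from wild-type FVB/NJ mice, an inbred strain, as biological duplicates at each of 4 stages: embryonic day 18 (E18), postnatal day 14 (P14), postnatal day 28 (P28) and adult. The adult libraries are labelled as 3 months old, and the methods name males at that age without saying so for the sequenced livers. The sex of the younger animals, pooling of embryos and removal of blood from the tissue are not given in the sources used here. Reads counted on genes ran from 68154675 to 106055723 by sample.

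In the fetus the liver is a site of blood formation, and megakaryocytes arise there from progenitors that can also give red cells. After birth blood formation settles in bone marrow and spleen. A platelet carries messenger RNA inherited from its megakaryocyte, so RNA of these genes in liver can come from resident megakaryocytes or from platelets in blood, and this cannot be told apart here. In bulk tissue, fewer cells of a type and less RNA per cell cannot be told apart either.

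The gene products fall into 4 groups by role. Pf4 (platelet factor 4) and Ppbp (pro-platelet basic protein) are chemokines stored in platelet alpha granules. Itga2b encodes the alpha IIb chain (CD41) of the fibrinogen receptor, which also appears on early blood progenitors. Gp1ba, Gp1bb, Gp9 and Gp5 encode the chains of the GPIb-IX-V complex, the receptor for von Willebrand factor. Gp6 encodes the collagen receptor, and Treml1 a granule receptor that reaches the platelet surface on activation. On GRCm38, Ppbp (chromosome 5 from 90768518 to 90770063) and Pf4 (90772435 to 90773383) lie next to each other on the plus strand with 2371 bases between them. The others are on separate chromosomes or far apart, with Itga2b on chromosome 11 from 102453297 to 102470122, Gp1ba on chromosome 11 from 70639122 to 70642036, Gp9 on chromosome 6 from 87778072 to 87779768, Gp5 on chromosome 16 from 30307685 to 30310779, Gp1bb on chromosome 16 from 18620317 to 18622403, Gp6 on chromosome 7 from 4363965 to 4397744 and Treml1 on chromosome 17 from 48359916 to 48367176. All are protein-coding.

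Megakaryocyte genes are known to be driven by GATA1 and by ETS factors such as FLI1, so the letters these factors read were searched in the RefSeq promoter windows on GRCm38 (300 bases, from 250 before to 50 after the start), which held all 9 genes. For GATA the letters were those of AGATAA, those of AGATAG, those of TGATAA and those of TGATAG, and for ETS those of AGGAAG and those of CGGAAG, on both strands, and no GATA match overlapped an ETS match in these 9 windows. GATA letters were found in 5 of the 9 windows, against 29.8% of all 32851 windows. ETS letters were found in 6 of 9, against 46.5%, and both kinds in 4 of 9 (Pf4, Gp5, Gp1ba and Gp1bb), against 12.6%. The GATA letters of Pf4 lay after the start. In these windows Ppbp and Treml1 held neither. A match is a run of letters, not a shown binding site. The 30 bases around the match nearest to and before the start are given for the 7 genes that have one. Matched letters are in capitals, read 5′ to 3′ on the strand of the gene. Each stretch was picked to hold a match, so the stretches do not show how often a match stands near the start.
Pf4, chr5:90772405-90772434, plus strand: tgtcattgcttctgcagagcaCTTCCTcat
Gp9, chr6:87778040-87778069, plus strand: attttcaccatttcCTTCCTcctgtcaggc
Gp1ba, chr11:70639092-70639121, plus strand: cccaactCTATCTcCTTCCTgctcttgggc
Itga2b, chr11:102469909-102469938, minus strand: gctttcctggagAGGAAGgggaagcagtga
Gp5, chr16:30310812-30310841, minus strand: gaatacttccctCTTCCTctctgaagtgcc
Gp1bb, chr16:18622408-18622437, minus strand: gcacctccccgcCTATCAtaagggaacaag
Gp6, chr7:4397871-4397900, minus strand: gctggcaagaagAGATAAgtggtggcttta
ETS letters began 9 bases before the RefSeq start in Pf4, 16 in Gp9 and Gp1ba, 43 in Itga2b and 48 in Gp5. For Itga2b the RefSeq start lies inside the gene span given above, so its printed stretch lies within that span and not before it. GATA letters stood 23 bases before the start in Gp1ba and 22 in Gp1bb, and the single match of Gp6 stood 144 bases before it.

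From E18 to adult, all 9 genes fell over 3-fold at a false discovery rate (FDR) below 0.1 in the quasi-likelihood test of edgeR, the call used throughout unless the FDR alone is named. Of the 17081 genes tested, 23.8% were called lower in the same comparison. Both adult samples lay below both E18 samples for 9 of 9 genes, against 47.5% of the genes tested. The log2 fold changes ran from -8.18 (Treml1) to -3.65 (Itga2b), with a median of -6.21 beside -0.11 over all genes tested. For each of the 9 genes the log2 fold change from E18 to P14 was the largest of the 3 successive intervals, which share samples (P14 and P28 each enter a pair of them). Markers of other blood lineages moved the same way: the 13 erythroid markers in the files summed to between 10190 and 12780 CPM at E18 and between 82.4 and 93.5 in adult, and the 12 neutrophil markers to between 1050 and 1236 CPM and between 1.72 and 4.81. Their part in the result was not tested.

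**Figure D1:**
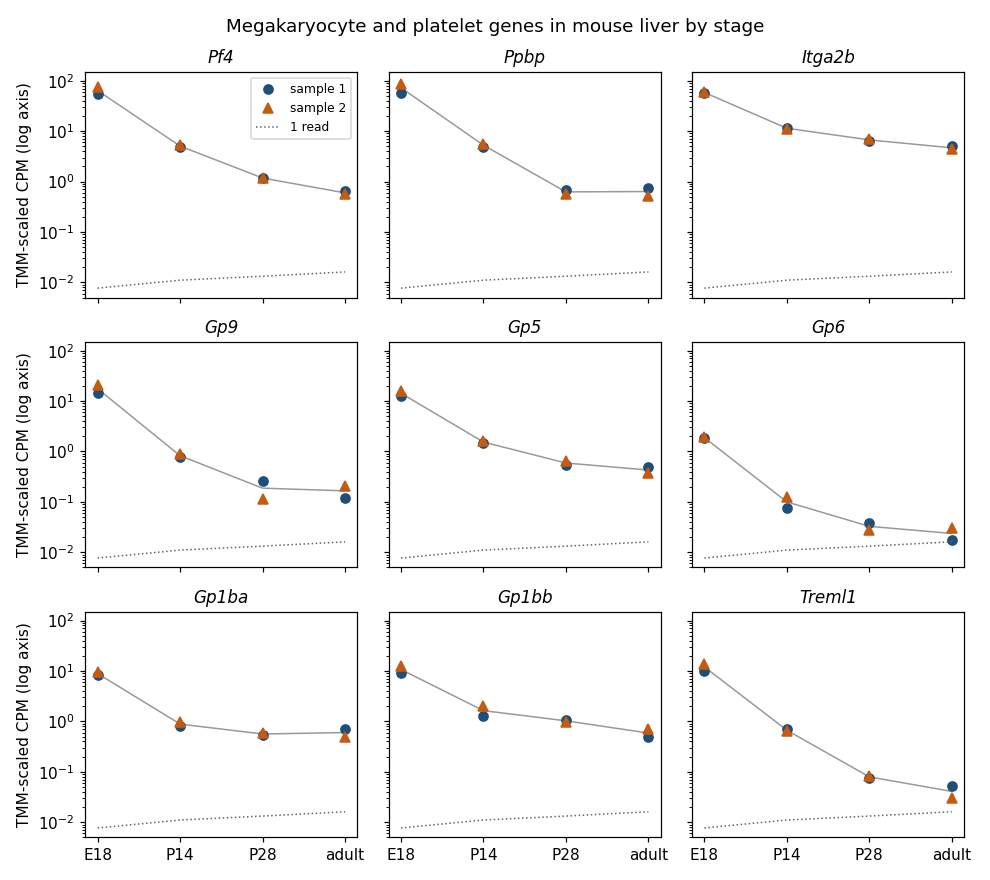
CPM (read counts scaled to library size, with TMM factors), on a log axis, of the 9 genes in both samples of each stage; the grey line joins the stage means and the dotted line is the CPM of 1 read. Every gene was highest at E18, and Gp6 and Treml1 came close to the line of 1 read in adult liver, with 1 to 3 reads per sample.

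The alpha granule chemokines were the most abundant of the set per length at E18. CPM is the read count scaled to the size of its library with the TMM factors of edgeR. Pf4 stood at 53.8 and 73.9 CPM (E18), 4.90 and 5.23 (P14), 1.16 and 1.19 (P28) and then 0.636 and 0.557 (adult). The samples of the 4 stages did not overlap, and each stage lay below the one before. From E18 to adult Pf4 fell 107-fold (log2 fold change -6.74, standard error (SE) 0.2, adjusted p = 6.9e-09 in edgeR). Ppbp stood at 58.1 and 87.2 CPM (E18), 4.92 and 5.61 (P14), 0.675 and 0.574 (P28) and then 0.756 and 0.512 (adult). It fell at every step to P28 and the P28 and adult samples overlapped. Its log2 fold change from E18 to adult was -6.85 (SE 0.27, adjusted p = 2.5e-08 in edgeR), or 115-fold.

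Itga2b had the smallest log2 fold change of the set. It stood at 57.0 and 60.2 CPM (E18), 11.6 and 11.2 (P14), 6.34 and 7.08 (P28) and then 4.97 and 4.37 (adult). These values rest on 289 and 290 reads in adult, the most of any of the 9 genes at that stage. The stages did not overlap, and the fall from E18 to adult was 12.6-fold (log2 fold change -3.65, SE 0.11, adjusted p = 8.6e-09 in edgeR). Its partner chain Itgb3, which completes the fibrinogen receptor and is no member of the set, fell from 64.7 ± 4.74 CPM (SD, n = 2) at E18 to 1.82 ± 0.318 in adult. That was a log2 fold change of -5.14 (SE 0.14, adjusted p = 4.6e-09 in edgeR).

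The chains of the GPIb-IX-V complex had log2 fold changes from E18 to adult between -6.7 (Gp9) and -3.89 (Gp1ba), and the differences between chains were not tested. Gp9 stood at 14.5 and 20.7 CPM (E18), 0.774 and 0.875 (P14), 0.263 and 0.112 (P28) and then 0.12 and 0.211 (adult), the last from 7 and 14 reads. Its P28 and adult samples overlapped, and from E18 to adult it fell 104-fold (log2 fold change -6.7, SE 0.35, adjusted p = 1.7e-07 in edgeR). Gp5 stood at 12.5 and 16.2 CPM (E18), 1.47 and 1.60 (P14), 0.538 and 0.643 (P28) and then 0.481 and 0.377 (adult). Each stage of Gp5 lay below the one before, with a total fall of 33.4-fold (log2 fold change -5.06, SE 0.22, adjusted p = 4.9e-08 in edgeR). Gp1ba, the chain that binds von Willebrand factor, stood at 8.41 and 9.39 CPM (E18), 0.807 and 0.965 (P14), 0.538 and 0.588 (P28) and then 0.705 and 0.497 (adult). After P14 it stayed within a narrow range, and its P28 and adult samples overlapped. The fall from E18 to adult was 14.9-fold (log2 fold change -3.89, SE 0.21, adjusted p = 2e-07 in edgeR).

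Gp1bb is read with a reservation. Its gene overlaps the 3′ part of Sept5, a septin gene on the same strand, and Gm49601, so that the reads of Gp1bb and Sept5 cannot be fully told apart. Gp1bb stood at 9.0 and 12.4 CPM (E18), 1.29 and 1.99 (P14), 1.08 and 0.979 (P28) and then 0.481 and 0.693 (adult), a fall of 18.1-fold (log2 fold change -4.18, SE 0.29, adjusted p = 1e-06 in edgeR). Sept5 fell by 2.44 on the log2 scale (SE 0.24, adjusted p = 1.3e-05 in edgeR). The read count of Gp1bb was 1.13 and 1.5 times that of Sept5 (E18), 0.797 and 0.734 (P14), 0.416 and 0.300 (P28) and then 0.329 and 0.455 (adult). At E18 Gp1bb thus had more reads than Sept5 and at every later stage fewer.

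Gp6 and Treml1 came nearest to the limit of the depth. Gp6 had 253 and 239 reads (E18), 7 and 11 (P14), 3 and 2 (P28) and then 1 and 2 (adult). The ratio of its E18 to its adult level was 78.2, with an exact 95% interval from 26.6 to 381 that covers counting error only. Its log2 fold change was -6.21 (SE 0.42, adjusted p = 8.1e-07 in edgeR). Treml1 had 1397 and 1722 reads (E18), 64 and 57 (P14), 6 and 6 (P28) and then 3 and 2 (adult). Its ratio of E18 to adult was 297.5 (exact 95% interval from 127 to 917, counting error only), and its log2 fold change was -8.18 (SE 0.33, adjusted p = 2.9e-08 in edgeR). Both genes had reads in every sample. No background level was measured, so the few adult reads do not settle whether either gene was expressed in adult liver.

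Between E18 and P14, the interval that spans birth and suckling, all 9 genes were called lower, against 15.4% of the genes tested. Both P14 samples lay below both E18 samples for 9 of 9, against 44.3% of genes. The log2 fold changes lay between -4.41 for Gp9 (SE 0.28, adjusted p = 8.9e-07 in edgeR) and -2.36 for Itga2b (SE 0.11, adjusted p = 1.1e-07 in edgeR), with a median of -3.66 beside -0.03 over all genes. Gp6, Treml1, Ppbp and Pf4 followed Gp9 with -4.22, -4.17, -3.79 and -3.66.

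Between P14 and P28, the interval of weaning, 4 of the 9 genes were called lower, against 5.98% of the genes tested. These were Ppbp (log2 fold change -3.07, SE 0.25, adjusted p = 3.1e-05 in edgeR), Treml1 (-3.06, SE 0.34, adjusted p = 0.00015 in edgeR), Gp9 (-2.11, SE 0.38, adjusted p = 0.002 in edgeR) and Pf4 (-2.11, SE 0.17, adjusted p = 3.2e-05 in edgeR). The other 5 were lower at an FDR below 0.1 but by less than 3-fold, so that 9 of 9 were lower by the FDR alone, against 28.6% of genes. Both P28 samples lay below both P14 samples for all 9, against 40.4% of genes. Itga2b, Gp1bb and Gp1ba had the smallest changes, -0.77, -0.67 and -0.65. Gp6 had a ratio of 3.02 between P14 and P28 (exact 95% interval from 1.08 to 10.4, counting error only), and it passed the 3-fold threshold when sample 1 of P14 was left out (log2 fold change -1.86, edgeR adjusted p = 0.042), against -1.56 with all samples. With at least 10 counts required in every sample, Gp9, Gp6 and Treml1 were not tested and 2 of the remaining 6 genes were called, Pf4 and Ppbp.

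Between P28 and adult 0 of the 9 genes were called in either direction in edgeR and 0 in DESeq2. Of the genes tested, 2.24% were called lower in edgeR, and the share called higher was not computed. An unadjusted p below 0.05 in edgeR was found for 3 of the 9, and the share of all genes at that p was not computed. By the FDR alone, 2 genes were lower, Pf4 by 0.98 on the log2 scale (SE 0.22, adjusted p = 0.021 in edgeR) and Itga2b by 0.52 (SE 0.11, adjusted p = 0.015 in edgeR), against 13.2% of genes. Both adult samples lay below both P28 samples for 5 genes, Pf4, Itga2b, Gp5, Gp1bb and Treml1, against 31.0% of genes. Ppbp and Gp1ba had log2 fold changes of 0.01 (standard error 0.32) and 0.09 (standard error 0.24), with edgeR adjusted p of 1 and 0.86. For Gp6 and Treml1 the ratios of P28 to adult were 1.37 (exact 95% interval from 0.267 to 8.83) and 1.97 (0.647 to 7.15), so a change of several fold was not detectable at this depth.

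**Figure D2:**
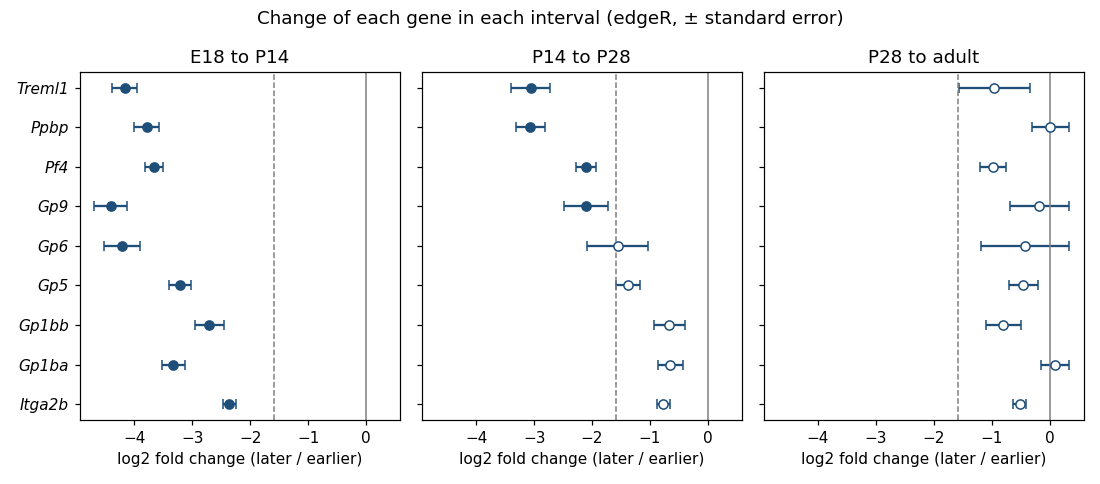
log2 fold change (later over earlier stage, edgeR, bars are ± 1 standard error) of each gene in the 3 intervals, ordered by the fall from E18 to adult; filled points passed both thresholds and the dashed line marks a 3-fold fall. All 9 points are filled from E18 to P14, 4 from P14 to P28 and 0 from P28 to adult.

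Levels of different genes were compared per length, with the deposited RPKM (reads scaled by transcript length and by mapped reads). At E18 the order was Pf4 (159 ± 32.6 RPKM, SD, n = 2), Ppbp (98.4 ± 26.2), Gp9 (31.7 ± 7.47), Itga2b (25.0 ± 0.537), Treml1 (14.5 ± 3.15), Gp5 (9.57 ± 1.6), Gp1bb (7.51 ± 1.57), Gp1ba (4.78 ± 0.29) and Gp6 (2.40 ± 0.0756). The ranges of neighbours in this order overlapped for Gp5 and Gp1bb alone. In adult the order was Itga2b (1.09 ± 0.0759 RPKM), Pf4 (0.811 ± 0.0587), Ppbp (0.468 ± 0.118), Gp1bb (0.226 ± 0.0621), Gp1ba (0.176 ± 0.0393), Gp9 (0.164 ± 0.0666), Gp5 (0.156 ± 0.0238), Treml1 (0.0267 ± 0.00938) and Gp6 (0.0165 ± 0.00669). There the ranges of Gp1bb, Gp1ba, Gp9 and Gp5 overlapped from neighbour to neighbour, as did those of Treml1 and Gp6. Among all 22059 listed genes, the RPKM of Pf4 exceeded that of 98.4 and 98.8% of genes (E18), 75.1 and 76.3% (P14), 55 and 56.0% (P28) and then 50.8 and 49.7% (adult).

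The make-up of the set thus shifted from the chemokines to Itga2b. Of the summed RPKM of the 9 genes, Itga2b held 8.18 and 6.26% (E18), 17.4 and 15.4% (P14), 31.7 and 35.4% (P28) and then 34.9 and 34.4% (adult). Ppbp held 26.6 and 28.9% (E18), 23.4 and 24.6% (P14), 10.7 and 9.12% (P28) and then 16.9 and 12.9% (adult). The ratio of Pf4 to Itga2b in RPKM was 5.53 and 7.18 (E18), 2.46 and 2.73 (P14), 1.07 and 0.982 (P28) and then 0.748 and 0.746 (adult), with no overlap between stages. A ratio within a sample does not depend on the scaling between samples. These ratios were chosen after the values had been seen and were not tested.

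**Figure D3:**
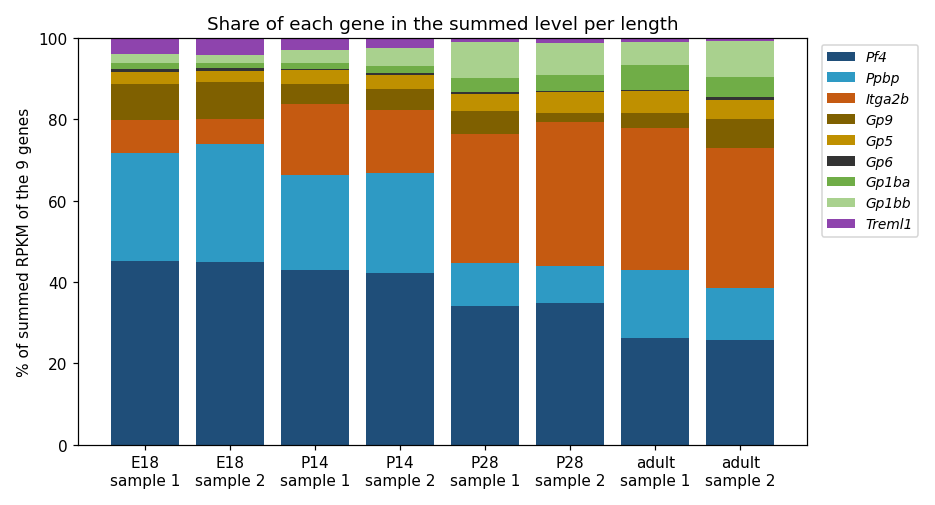
Share of each gene, in %, in the summed RPKM of the 9 genes, 1 bar per sample, so that each bar adds up to 100%. The share of Itga2b lay between 6.26 and 8.18% at E18 and between 34.4 and 34.9% in adult, while that of Pf4 went from 45.2 and 45.0% to 26.1 and 25.7%.

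Chains of the same complex shifted against each other as well. The ratio of Gp5 to Gp1ba in RPKM was 1.85 and 2.15 (E18), 2.27 and 2.07 (P14), 1.25 and 1.37 (P28) and then 0.851 and 0.945 (adult). That of Gp9 to Gp1ba was 5.79 and 7.43 (E18), 3.23 and 3.05 (P14), 1.64 and 0.641 (P28) and then 0.575 and 1.43 (adult). Both ratios were lower at P28 and in adult than at the 2 earlier stages, and for Gp9 the P28 and adult samples overlapped.

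The duplicates at E18 differed in the same direction for all 9 genes. Sample 2 was higher than sample 1 by 0.08 (Itga2b) to 0.59 (Ppbp) on the log2 scale of TMM-scaled CPM. The share of all genes that were higher in sample 2 was not computed, so a general difference between the libraries cannot be told apart. Gp6 (0.1) and Gp1ba (0.16) were close between the samples, whereas Pf4 (0.46), Gp1bb (0.46), Treml1 (0.48) and Gp9 (0.52) were not. The same sample had higher sums of erythroid (12780 against 10190 CPM), neutrophil (1236 against 1050), Kupffer cell (543 against 386) and pancreatic acinar markers (551 against 260), and a lower sum of endothelial markers (427 against 481). The hepatocyte sum was close, 47810 against 47600 CPM. The part of these lists in the difference was not tested. Without this sample all 9 genes were still called lower from E18 to adult.

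**Figure D4:**
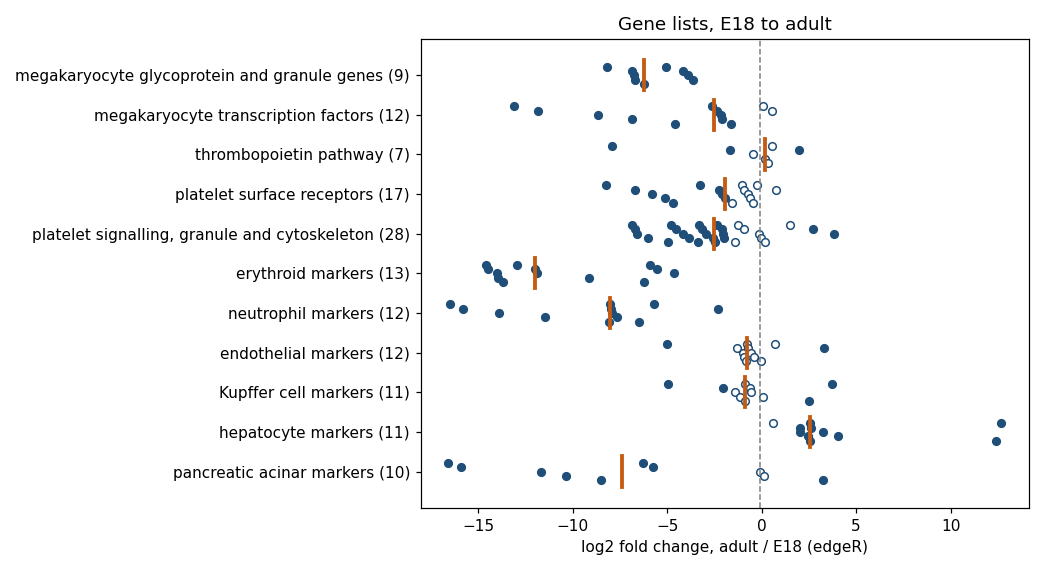
log2 fold change from E18 to adult (edgeR) of every tested gene in each list, with the number of genes tested in brackets; filled points passed both thresholds, orange bars are list medians and the dashed line is the median of all genes tested, -0.11. The 9 megakaryocyte genes all lie at or below -3.65, and 10 of the 11 hepatocyte markers were called higher.

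Other genes of megakaryocytes and platelets were read from 4 lists with 64 genes in the files. From E18 to adult 40 were called lower and 3 higher, against 23.8 and 16.8% of the genes tested, with a median log2 fold change of -2.15 beside -0.11 over all genes. From E18 to P14, 29 were lower and 3 higher, against 15.4 and 13.8% of genes. From P14 to P28, 12 were lower and 0 higher, against 5.98 and 3.61%. From P28 to adult 0 were called in edgeR and 0 in DESeq2, where 2.24% of the genes tested were called lower in edgeR. In that interval 25 had an unadjusted p below 0.05 in edgeR, in either direction. The share of all genes at that p was not computed, so this count has nothing to stand against. Of the 12 transcription factors, 10 were lower and 0 higher from E18 to adult. Tal1 fell from 467 ± 16 to 1.13 ± 0.144 CPM and Nfe2 from 242 ± 57.4 to 2.06 ± 0.671. Zfpm1 (FOG-1, the partner of GATA1) reached its lowest level at P14, 33.0 ± 0.495 CPM, and stood at 78.8 ± 5.52 in adult, against 247 ± 1.04 at E18. Tal1, Gata1 and Gfi1b are among the factors shared with red cell precursors, whose part in the values of this list was not tested. Fli1, which is also active in endothelial cells, fell by 2.36 on the log2 scale (SE 0.17, adjusted p = 1.1e-06 in edgeR).

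In the thrombopoietin pathway, the hormone itself was called higher and the kinase Jak2 lower. Thpo, the hormone that hepatocytes release to drive platelet production, stood at 8.01 and 7.36 CPM (E18), 33.8 and 32.8 (P14), 40.8 and 31.8 (P28) and then 26.0 and 33.3 (adult). It was higher in every postnatal sample than in both E18 samples, and its log2 fold change from E18 to adult was 1.95 (SE 0.15, adjusted p = 2.6e-06 in edgeR). With counts scaled by library size alone, 0 genes of this list were called higher. Jak2, a kinase of cytokine signalling, was lower (log2 fold change -1.68, SE 0.11, adjusted p = 5.4e-07 in edgeR), and Stat5a, Stat5b, Sh2b3 and Lyn were not called.

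Of the 17 other platelet surface receptors, 9 were called lower and 0 higher from E18 to adult, against 23.8 and 16.8% of the genes tested. By mean CPM over all 8 samples the first 3 were Itgb3, Cd36, a fatty acid and thrombospondin receptor that other cells share (33.5 ± 1.68 CPM at E18, 7.09 ± 0.809 in adult, called lower), and Esam, an adhesion molecule also of endothelium (15.1 ± 0.427 and 11.1 ± 1.61, not called). Among the rest, F2rl3, a thrombin receptor, had 390 and 362 reads at E18 and 1 and 0 in adult, and P2rx1, an ATP-gated channel, went from 10.2 ± 1.36 to 0.0978 ± 0.0318 CPM. Clec1b, the podoplanin receptor, stood at 6.82 ± 1.58 CPM at E18 and 5.79 ± 0.347 in adult and was not called (log2 fold change -0.24, SE 0.17, adjusted p = 0.23 in edgeR). Fcer1g, the signalling partner of Gp6 that many myeloid cells share, was at 17.8 ± 4.42 and 6.07 ± 0.683 CPM and did not pass 3-fold.

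Of 28 signalling, granule and cytoskeleton genes, 19 were called lower and 2 higher from E18 to adult, against the same 23.8 and 16.8%. Tubb1, the beta tubulin of the platelet ring, had 3130 and 3037 reads (E18), 89 and 108 (P14), 14 and 9 (P28) and then 11 and 14 (adult) (log2 fold change from E18 to adult -6.87, SE 0.21, adjusted p = 7.9e-09 in edgeR). Fermt3, the integrin activator kindlin-3, fell from 143 ± 12.5 to 4.53 ± 0.111 CPM, while Mylk, the myosin light chain kinase of many contractile cells, was at 45.1 ± 12.1 and 129 ± 2.43 CPM and did not pass 3-fold. Vwf, which endothelial cells also make, fell from 31.0 ± 3.13 to 7.44 ± 0.205 CPM (log2 fold change -2.06, SE 0.22, adjusted p = 2.1e-05 in edgeR). The 2 genes called higher were F5, the clotting factor that the liver secretes, at 2.71 (SE 0.14, adjusted p = 1.4e-07 in edgeR), and Selp, the P-selectin of platelet and endothelial granules, at 3.85 (SE 0.12, adjusted p = 1e-08 in edgeR). Selp stood at 1.32 and 1.37 CPM (E18), 7.24 and 7.56 (P14), 17.2 and 18.1 (P28) and then 18.3 and 20.5 (adult). The 12 endothelial markers summed to between 427 and 481 CPM (E18), 871 and 882 (P14), 447 and 457 (P28) and then 326 and 369 (adult), and their part in the values of Vwf and Selp was not tested. The 11 hepatocyte markers in the files, which check the tissue label, had reads in every sample and summed to between 47600 and 229700 CPM.

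The 5 genes outside all lists whose profile lay nearest to the median profile of the 9 genes were Bzrap1, Slc38a1, Gfi1, Ddx26b and Slc2a3. The measure was the root mean square difference in centred log2 CPM over the 8 samples, which was 0.196 for Bzrap1 and 0.232 for Slc2a3. Among the 9 genes themselves it ran from 0.242 for Gp6 to 0.863 for Treml1. The 5 genes were picked for the smallest difference among the tested genes outside all lists, so their smaller values reflect that choice. With 4 stages this measure describes the order and size of the steps and no more.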

How the data were processed

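Stage and replicate number came from the sample titles. The authors aligned 100 bp read pairs to the mouse genome and transcriptome (their processing notes name mm9; the aligner and counter are not given in the sources used here) and deposited raw read counts per gene. RPKM, scaled by transcript length and by mapped reads, stand beside the counts in the deposited files. One blank line per file was left out. GRCm38 coordinates are from GENCODE M21 and promoters from RefSeq; no coordinate was taken from the files.

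Counts were filtered with filterByExpr, TMM-scaled and fitted with glmQLFit of edgeR (version 4.0.16) with 1 coefficient per stage over all 8 samples. P-values were adjusted by Benjamini-Hochberg over 17081 genes. The call (FDR below 0.1, over 3-fold) uses the study's FDR, set there for DESeq, and its fold threshold. DESeq2 (version 1.42.0) was an alternative. The standard error is the log2 fold change divided by the square root of F. Scripts were tested on simulated data. R (version 4.3.3), Python (version 3.11.15) and matplotlib (version 3.10.9) were used.

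The members and lists were chosen with earlier results of these data known. Named were all members, Thpo, Itgb3, Tubb1 and Vwf, the 3 genes of each list with the highest mean CPM over all samples, those called against its majority, 5 of nearest profile, and genes overlapping a member; other genes in the text were chosen after their values were seen. Bin2, Ahsp and Tf had no row under the symbols searched. One further gene is not reported here.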

Additional observations from a re-analysis of the deposited data

How the results depend on the processing

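From E18 to adult and from E18 to P14, all tested members were called lower under every alternative run: no low-count filter, median-ratio scaling, library size alone, DESeq2, only the 2 stages compared, replicate block, a 2-fold threshold, an FDR of 0.05 and each sample left out (9 in each of the 8 fits), and 6 of 6 with at least 10 counts in every sample. From P14 to P28, 3.24% of the genes tested were called lower with at least 10 counts in every sample and 12.4% at a 2-fold threshold. The share was 5 to 6.07% in the other runs that left no sample out. The count of members in that interval was 2 with at least 10 counts in every sample, because 3 members were then not tested. It was 6 at a 2-fold threshold (with Gp5 and Gp6) and 4 in the other runs that left no sample out. From P28 to adult it was 0 throughout. Of the other megakaryocyte and platelet genes, 38 to 41 were lower and 3 to 4 higher with a sample left out, 46 and 2 with library size alone, 44 and 4 at a 2-fold threshold, and 32 and 3 of 55 tested with at least 10 counts in every sample. Over all genes tested, 36.1% were called lower from E18 to adult with library size alone, against 23.8% in the main fit. The share was 31.4% at a 2-fold threshold and 17.2% with at least 10 counts in every sample. From E18 to P14 it was 29.8% with library size alone, against 15.4% in the main fit. At a 2-fold threshold it was 23.4% in that interval, and 9.73% with at least 10 counts in every sample. Library size alone moved the median of all genes from E18 to adult from -0.11 to -0.95 and that of the members from -6.21 to -7.05, a like shift. Log2 fold changes near 0 from P28 to adult changed sign, none called: Ppbp went to 0 without the filter and with at least 10 counts, and with a sample left out ran from -0.29 to 0.27 (-0.1 without sample 2 of P28), Gp9 from -0.66 to 0.58 (0.14 without sample 1 of adult) and Gp1ba from -0.18 to 0.32. The causes were not tested. The replicate block called 9, 9, 4 and 0 members, as without it. Deviations of same-numbered samples correlated at a mean r of -0.061 (from -0.222 to 0.087 over 6 pairs of stages). No strong shift shared by number was seen, but with 2 samples per stage this cannot exclude that the numbers pair samples. Depth limits Gp6, Treml1 and Gp9 after P14.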

Other observations

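As a sum, the members fell less than the erythroid markers did. The median log2 fold change from E18 to adult was -6.21 for the members and -12.02 for the erythroid markers. Of the latter, Alas2 (-4.63), Klf1 (-5.57) and Tfrc (-5.91) lay above the members' median and Epor stood at -6.21. The rest lay below every member. The summed CPM of the members was 0.0221 and 0.0232 times that of the 13 erythroid markers (E18), 0.0614 and 0.0674 (P14), 0.119 and 0.0993 (P28) and then 0.0879 and 0.0883 (adult). Every postnatal sample lay above both E18 samples. Against the 12 neutrophil markers the ratio was 0.214 and 0.240 (E18), 0.144 and 0.143 (P14), 1.57 and 2.60 (P28) and then 4.78 and 1.51 (adult). The neutrophil sum was between 184 and 198 CPM at P14 and between 4.34 and 6.82 CPM at P28. Its genes did not move alike from E18 to P14: the log2 fold changes of Mpo (-5.31), Prtn3 (-4.4) and Elane (-4.24) lay below the members' median of -3.66, and those of the other 9 above it, among them S100a8 (-2.45) and S100a9 (-2.21). These ratios were chosen after the values had been seen and were not tested.

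The 11 Kupffer cell markers, the resident macrophages of the liver, summed to between 386 and 543 CPM (E18), 655 and 718 (P14), 646 and 780 (P28) and then 362 and 370 (adult), so that this sum did not follow the members. The first 3 by mean CPM over all 8 samples were Clec4f, which was called higher from E18 (21.8 ± 5.89 CPM) to adult (123 ± 1.9), Cd5l (113 ± 42.1 and 61.5 ± 4.24) and C1qa (41.6 ± 8.11 and 43.7 ± 1.45), neither of which was called. Of the 11, Marco (76.4 CPM at E18, 2.42 in adult) and Emr1 were called lower and Clec4f and Vsig4 higher, against 23.8 and 16.8% of the genes tested. With library size alone 6 were called lower, against 36.1% of the genes tested. The endothelial genes Eng, Stab2 and Stab1 were not called, while Lyve1 was called lower and Clec4g higher. With library size alone 7 of the 12 endothelial markers were called lower, against the same 36.1% of genes.

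Among the markers of other cells with the highest mean CPM over all 8 samples, the red cell genes Slc4a1 (3676 ± 531.5 CPM at E18, 0.218 ± 0.0317 in adult), Tfrc (1245 ± 266 and 20.8 ± 10.5) and Alas2 (1387 ± 356 and 56.1 ± 3.54) were called lower. So were the neutrophil genes S100a9 (264 ± 50.2 and 0.98 ± 0.51), S100a8 (194 ± 35.0 and 0.738 ± 0.533) and Mpo (272 ± 18.9 CPM at E18). The hepatocyte genes Apoa1 and Ttr were called higher, and Alb (38360 ± 64.0 and 57800 ± 11510) was not called. Of the pancreatic acinar genes, Pnliprp1 (138 ± 59.0 CPM at E18) and Ctrb1 (134 ± 89.5) were called lower and Cela1 (11.9 ± 2.81 and 112 ± 10) higher. Pnliprp1 had no read in either adult sample.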
